A study of Mus musculus with 8 samples.

Results

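Drosha KO and Ago1_2 KO mouse embryonic stem cells were set beside wild type (WT) and Dgcr8 KO cells, because the first principal component of expression in these same libraries parted the genotypes in this way: the members were chosen by their scores on it. The pair of mutants held 4 of the 8 libraries of the study, 2 for each genotype, and the other 4 were 2 of WT and 2 of Dgcr8 KO. RNA was polyadenylated RNA from stem cells of the 129/Ola strain, derived from the blastocyst. All genotypes were kept for 2 weeks or more in 2i, a serum-free N2B27 medium with LIF and the inhibitors CHIR99021 (of GSK3, which opens the Wnt pathway) and PD0325901 (of MEK, which closes ERK signalling). Genotypes are named as labelled: a knockout (KO) of Drosha, of Dgcr8, or of both Ago1 and Ago2. Separate clones or cultures are not named in the labels for the libraries of a genotype, and p-values reflect no more than the spread among these libraries, which may be technical. Total counts were between 13229771 and 26333907 per library, and 16388 genes passed the filter on low counts.

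DROSHA and DGCR8 together form the Microprocessor, which cuts the hairpins of primary miRNA transcripts in the nucleus. Argonaute proteins bind the mature miRNAs and use the seed, bases 2 to 8 of the miRNA, to find target mRNAs, which are then repressed. In mouse embryonic stem cells many of the miRNAs come from the miR-290 and miR-17 clusters, whose seeds are alike, and the medium used here keeps the cells in a naive state in which a few cells pass through a stage that resembles the embryo at its first cleavage.

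Some sequences help in reading the values. Mature miRNAs of genes that parted the genotypes in another way than the main split are given in RNA letters (RefSeq, GRCm38.p6), with the seed in capitals. Of 22 such miRNA genes, 22 had a mature sequence. The seeds of 8 mature miRNAs, from these genes and from Mir295, hold the run AAGUGC, shifted by 1 base between the miR-290 and the miR-17 relatives, and miR-27b-3p is shown as one that does not.
miR-290a-3p: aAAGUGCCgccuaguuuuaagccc
miR-291a-3p: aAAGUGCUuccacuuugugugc
miR-291b-3p: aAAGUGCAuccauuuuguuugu
miR-294-3p: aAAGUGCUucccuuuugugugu
miR-20a-5p: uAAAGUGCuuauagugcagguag
miR-106a-5p: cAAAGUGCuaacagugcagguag
miR-27b-3p: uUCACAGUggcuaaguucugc

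The 250 bases before the start site are shown for 5 genes whose levels parted the genotypes (RefSeq, GRCm38.p6, 5′ to 3′ on the strand of the gene). Capitals mark CTTTGA or its complement TCAAAG, the core that TCF and LEF factors of the Wnt pathway bind, in T (chr17:8434173-8434422, plus strand), Sp5 (chr2:70474673-70474922, plus), Zscan4c (chr7:11005495-11005744, plus) and Zscan4f (chr7:11397665-11397914, plus). In Rsad2 (chr12:26456453-26456702, minus strand) they mark a core of the interferon-stimulated response element.
T: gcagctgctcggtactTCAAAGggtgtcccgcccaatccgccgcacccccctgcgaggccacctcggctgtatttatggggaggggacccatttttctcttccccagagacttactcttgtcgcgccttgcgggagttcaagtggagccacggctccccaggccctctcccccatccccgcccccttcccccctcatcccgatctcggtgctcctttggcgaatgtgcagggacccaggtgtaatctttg
Sp5: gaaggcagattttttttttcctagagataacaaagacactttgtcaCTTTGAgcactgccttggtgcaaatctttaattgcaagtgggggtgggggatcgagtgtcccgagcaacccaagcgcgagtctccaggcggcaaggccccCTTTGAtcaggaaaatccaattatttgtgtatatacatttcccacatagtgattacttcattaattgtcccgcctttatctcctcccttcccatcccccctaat
Zscan4c: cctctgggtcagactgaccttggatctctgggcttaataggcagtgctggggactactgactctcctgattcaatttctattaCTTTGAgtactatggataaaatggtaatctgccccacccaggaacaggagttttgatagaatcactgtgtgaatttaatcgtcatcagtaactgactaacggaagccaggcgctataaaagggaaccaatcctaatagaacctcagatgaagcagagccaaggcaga
Zscan4f: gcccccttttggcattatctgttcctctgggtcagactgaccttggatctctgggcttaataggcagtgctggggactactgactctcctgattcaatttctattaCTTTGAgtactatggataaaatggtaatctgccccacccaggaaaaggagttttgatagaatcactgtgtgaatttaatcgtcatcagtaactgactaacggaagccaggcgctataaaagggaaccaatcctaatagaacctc
Rsad2: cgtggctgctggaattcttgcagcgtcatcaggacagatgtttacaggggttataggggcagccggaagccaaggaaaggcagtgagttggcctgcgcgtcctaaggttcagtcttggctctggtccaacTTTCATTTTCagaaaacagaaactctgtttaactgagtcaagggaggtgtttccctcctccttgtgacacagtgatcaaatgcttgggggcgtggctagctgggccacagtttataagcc
The T window held 1 match, with its first base 234 bases before the start, and the Sp5 window held 2, at 204 and 104 bases before it. Of all 32851 windows of this length in the table, 13.8% held CTTTGA on either strand, and of the 14110 windows of tested genes 10.6% did. The share was 9.51% of 957 windows of the genes higher in the mutant pair, near that of tested genes, and 15.8% of 501 windows of the lower genes. It was 6 of 23 windows of Wnt targets and 4 of 16 of two-cell-like genes. The 4 were those of Zscan4b, Zscan4c, Zscan4d and Zscan4f, copies of 1 family and so not independent, and no other two-cell-like window held it. The interferon-stimulated response element core was in 2.98% of all windows, 2.41% of those of tested genes and 8 of 26 windows of interferon genes. These are matches of letters and show no binding. The Zscan4c and Zscan4f windows share an identical run of 127 bases. Since the windows lie before the start, this does not show how alike the counted transcripts are, between which reads may be split.

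The first principal component of log2 CPM (counts relative to the library total, scaled by TMM) held 44.8% of the variance and gave the rule. Scores were 54.9 and 29.1 for Drosha KO, 59.1 and 71.8 for Ago1_2 KO, -52.5 and -57.3 for Dgcr8 KO and -48.0 and -57.2 for WT. The library just inside the mutant pair was Drosha KO 2 and the one just outside was WT 1, and the gap between them was 59.6% of the range. The second component (25.1%) set Dgcr8 KO at 61.6 and 49.9 against WT at -35.6 and -69.9, and the third (10.6%) set Drosha KO at 49.1 and 32.0 against Ago1_2 KO at -32.2 and -34.6. Of the sum of squares between genotypes, 55.8% lay between the pairs, 29.4% between Dgcr8 KO and WT and 14.8% between Ago1_2 KO and Drosha KO. Replicates lay more than 2-fold apart for 2427 genes of WT and 2250 of Drosha KO, but for 707 of Ago1_2 KO and 580 of Dgcr8 KO.

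**Figure D1:**
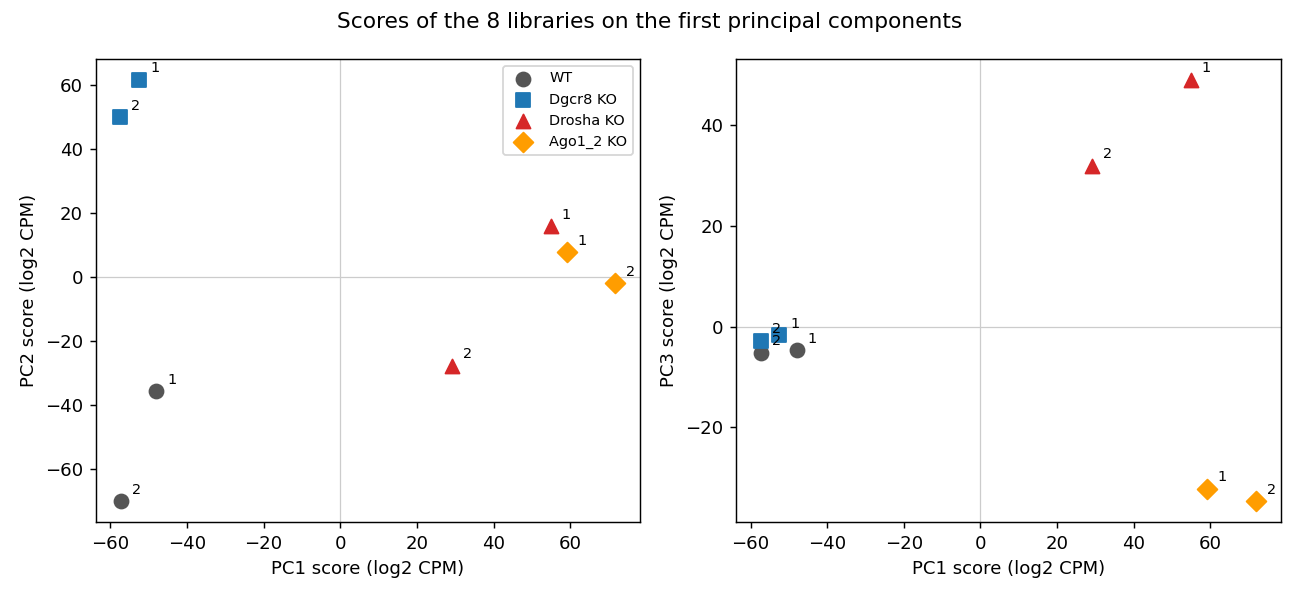
Scores of the 8 libraries on principal components of log2 CPM, the first on both x axes, the second (left) and the third (right) on the y axes, with each point a library and its replicate number. The 4 libraries of Drosha KO and Ago1_2 KO lie to the right of 0 and the others to the left, by which they were chosen, with Drosha KO 2 nearest to the other side.

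Levels of the targeted genes come before the rest. Drosha mRNA (ENSMUSG00000022191.15) was at 51.2 and 82.4 CPM in Drosha KO, 339 and 362 for Ago1_2 KO, 254 and 282 for Dgcr8 KO and 278 and 266 for WT. It was low in the libraries labelled Drosha KO alone. Between the mutants Drosha mRNA was 2.39 ± 0.24 higher on the log2 scale in Ago1_2 KO (SE, 2 libraries each, edgeR adjusted p 0.00473). Without Ago1_2 KO 2 the difference was 2.34 and the call was lost. Ago2 mRNA (ENSMUSG00000036698.10) was at 216 and 195 CPM in Ago1_2 KO, 1070 and 809 for Drosha KO, 522 and 396 for Dgcr8 KO and 464 and 227 for WT, and was called lower in Ago1_2 KO than in Drosha KO (-2.19 ± 0.34, edgeR adjusted p 0.0236), a call lost without any 1 library of Drosha KO or Ago1_2 KO (0.0583 to 0.244). Ago1 mRNA (ENSMUSG00000041530.16) had 160 and 87.8 CPM in Ago1_2 KO, within the range of the other libraries (63.3 to 296), so its level does not check that label. Dgcr8 mRNA (ENSMUSG00000022718.11), whose own hairpins the Microprocessor cuts, had 392 and 370 CPM in Dgcr8 KO, 304 and 234 for Drosha KO, 91.2 and 82.9 for Ago1_2 KO and 78.1 and 70.5 for WT. Its level thus stood high in both Microprocessor mutants and cuts across the main split. A gene can be disrupted with its mRNA still made, which counts per gene do not show.

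Labelled cell type was checked by marker genes. The summed level of 12 embryonic stem cell markers was 5180 to 6270 CPM in all 8 libraries, and that of 8 fibroblast feeder markers was 6.80 to 16.0 CPM. The 8 neural markers summed to 92.0 to 98.9 CPM in Ago1_2 KO, 42.8 to 63.9 for Drosha KO, 38.3 to 41.7 for WT and 19.8 to 21.9 for Dgcr8 KO. The 8 mesoderm markers, of which Msgn1 had no counts in any library, summed to 6.71 to 8.85 CPM in Drosha KO, 19 to 20.3 for Ago1_2 KO, 31.4 to 44.7 for WT and 63.3 to 79.0 for Dgcr8 KO. The sum includes T, a gene that the split picked, which was at 49.5 CPM in Dgcr8 KO 1 and 33.1 in WT 2, and the mesoderm marker Kdr was at 14.9 and 13.8 CPM in Ago1_2 KO against 0.734 and 0.435 for WT. The longer list of 14 mesoderm genes had a median log2 difference of 0.69 between the pairs. In bulk RNA a change in the share of cells of a type and a change in RNA per cell cannot be told apart.

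The split itself was described without a test, since it chose the members. In 1968 genes (12% of those passing the filter) all 4 libraries of Drosha KO and Ago1_2 KO lay above all 4 of WT and Dgcr8 KO, and in 1903 (11.6%) all lay below. With a log2 difference of 1 or more between the pairs as well, 1068 genes were higher (6.52%) and 589 lower (3.59%), and all 4 differences between single genotypes reached 2-fold in 593 and 275 of them. Among the higher genes the median log2 difference was 1.495 for Drosha KO and 1.74 for Ago1_2 KO against WT, and 1.59 and 2.02 against Dgcr8 KO. Ago1_2 KO lay farther out than Drosha KO in 750 of the 1068 higher genes, but in 240 of the 589 lower genes.

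The genes of both sets differed in kind. The higher genes had a median level of 5.15 CPM and 41.5% of them were under 1 CPM in WT, against 16.6% of the lower genes and 15% of all. The sets were chosen as low or high in WT and Dgcr8 KO, so these shares under 1 CPM follow in part from the choice. Of the higher genes 89.1% are annotated as protein coding, against 70.5% of the lower and 83.5% of all genes, and 42 of the lower genes are lincRNAs. Median GC content of the transcripts was 52.8% in the higher, 48.4% in the lower and 50.1% in all genes. Of the genes with an annotated 3′ UTR, 36.5% of 916 higher genes and 24.5% of 404 lower genes held GCACTT, which pairs with the AAGUGC run of the seeds, against 33% of all 13350, with median UTR lengths of 1208, 994 and 1161 bases. Per kilobase of UTR the sites numbered 0.326, 0.266 and 0.307, in the same order as the shares. The part of UTR length or GC content in these shares was not tested.

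Genes that best parted the pairs by the smallest of the 4 differences are named next, from the higher side. H2-T10, an MHC class I locus annotated as a polymorphic pseudogene, had 11.5 and 5.27 CPM in Drosha KO and 8.40 and 7.56 for Ago1_2 KO, against 0.169 and 0.774 for WT and 0.422 and 0.318 for Dgcr8 KO. Uba7, the E1 enzyme that attaches the interferon-induced modifier ISG15, had 27.9 and 44.1 for Drosha KO and 21.6 and 22.4 for Ago1_2 KO, against 1.35 and 2.56 for WT and 0.211 and 0.254 for Dgcr8 KO. Neither was called between Ago1_2 KO and Drosha KO (edgeR adjusted p 0.993 and 0.499), whereas Uba7 was called lower in Dgcr8 KO than in WT (-3.06 ± 0.51, edgeR adjusted p 0.0131, but 0.162 and 0.106 without Dgcr8 KO 1 and Dgcr8 KO 2). Smyd1, a histone methyltransferase of muscle, had 55.0 and 35.5 CPM in Drosha KO and 62.8 and 57.9 for Ago1_2 KO, against 2.60 to 5.12 in the other 4 libraries. Msln, which encodes the surface protein mesothelin, had 34.9 and 22.4 CPM in Drosha KO and 35.4 and 29.8 for Ago1_2 KO, against 2.31 and 2.999 for WT and 0.528 and 0.508 for Dgcr8 KO.

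Within the higher genes the Drosha KO libraries were at times far apart. Crmp1, a cytoskeletal protein of growing axons, had 21.8 CPM in Drosha KO 1 but 1.59 for Drosha KO 2, against 29.2 and 31.1 for Ago1_2 KO and 0.282 to 0.871 in the other 4 libraries. Its log2 difference between the pairs was 4.83 with all libraries and 3.40 without Drosha KO 1. Myrf, the myelin regulatory factor, had 35.6 and 6.98 CPM in Drosha KO and 26.3 and 25.7 for Ago1_2 KO, against 0.105 to 1.69 elsewhere (5.42, and 4.63 without Drosha KO 1). Zan, Megf11, Lrrc15, Zbtb16, Tmem132d and Sh3rf2, the other genes taken by this rule, had 1.98 to 61.3 CPM in the mutant pair and 0 to 3.64 in the other libraries.

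On the lower side T (Brachyury, ENSMUSG00000062327.10), a mesoderm transcription factor and Wnt target, had 0.34 and 0.0388 CPM in Drosha KO and 0 and 0.0748 for Ago1_2 KO, against 12.6 and 33.1 for WT and 49.5 and 63.3 for Dgcr8 KO. Near 0 on one side, it had 7 counts over both Drosha KO libraries and 1 over both Ago1_2 KO libraries, so that its fitted difference between those has no firm size. Lin28a, which encodes an RNA-binding protein that blocks let-7 maturation, had 0.965 and 0.194 CPM in Drosha KO and 1.47 and 0.823 for Ago1_2 KO, against 19.5 and 26.1 for WT and 64.5 and 66.0 for Dgcr8 KO. Htr5a, a serotonin receptor gene, had 0.284 and 0.698 for Drosha KO and 0.318 and 0.449 for Ago1_2 KO, against 15.6 and 26.7 for WT and 49.2 and 69.3 for Dgcr8 KO. Both lay above WT in Dgcr8 KO by a test that the rule did not use (Lin28a 1.51 ± 0.39, Htr5a 1.49 ± 0.34, edgeR adjusted p 0.0481 and 0.0331), while T missed the threshold there (1.30 ± 0.47, edgeR adjusted p 0.107). Htr5a lost its call without either library of Dgcr8 KO or of Ago1_2 KO (edgeR adjusted p up to 0.224), and Lin28a also without either WT library (up to 0.278).

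Of the other lower genes, Cavin1 and Gbx2 overlapped between WT and Dgcr8 KO. Cavin1, a coat protein of caveolae, had 4.25 and 4.07 CPM in Drosha KO and 2.03 and 4.04 for Ago1_2 KO, against 19.98 and 21.7 for WT and 19.6 and 21.8 for Dgcr8 KO. Gbx2, a homeobox gene of naive pluripotency, had 2.95 and 1.98 CPM in Drosha KO and 2.51 and 3.44 for Ago1_2 KO, against 10.9 and 17.4 for WT and 15.2 and 21.98 for Dgcr8 KO. Ftx, a long noncoding RNA of the X inactivation centre, had 1.08 and 0.504 CPM in Drosha KO and 0.796 and 0.673 for Ago1_2 KO, against 3.77 to 8.55 in the other libraries. Calb2, Pou2f3, S1pr3, Pdzrn3, Xlr3a and Sp5 had 0.388 to 4.77 CPM in the mutant pair and 2.85 to 37.5 in the other libraries. Vrtn had no counts in any library of the mutant pair and 163 in the other 4, so it was at least 60.9-fold lower (floor of 3 counts over the pair, counting error only).

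**Figure D2:**
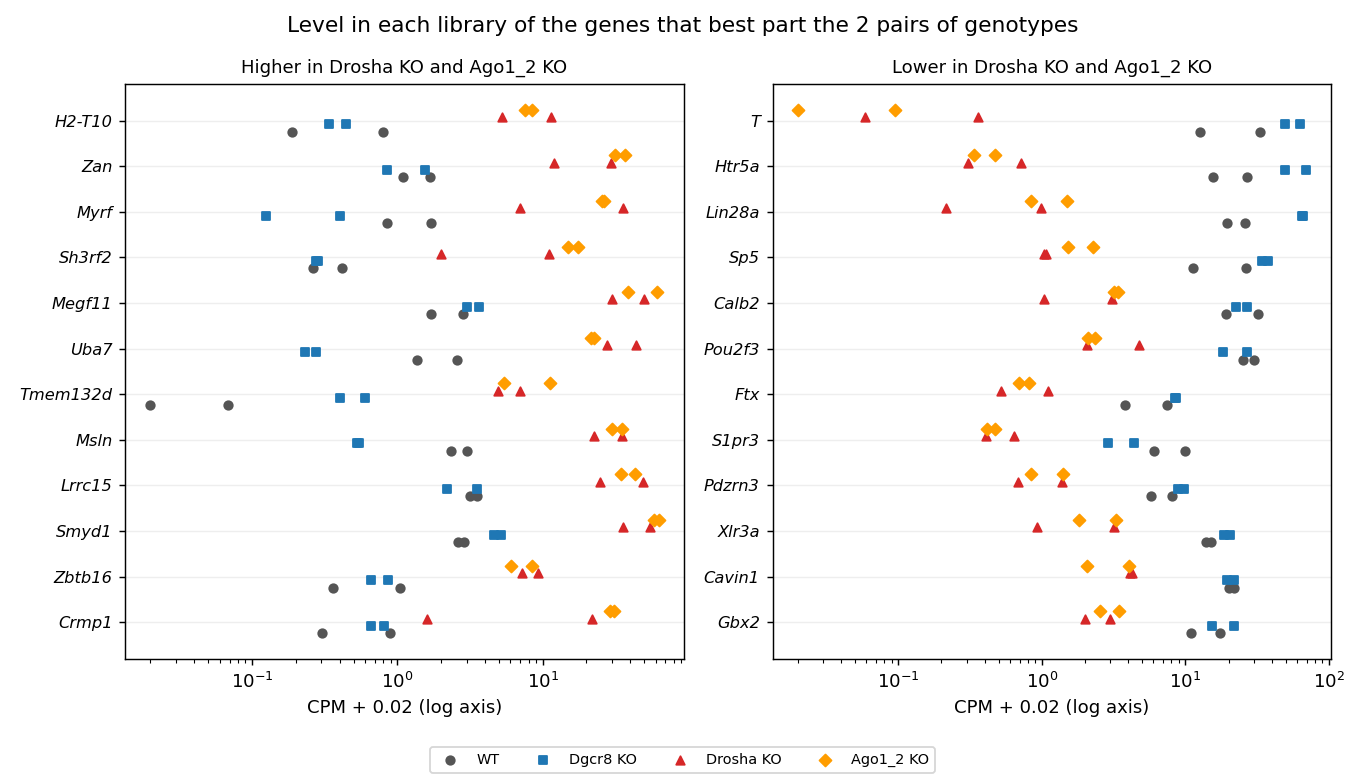
Level in each library (CPM plus 0.02, log axis) of the 12 genes on each side with the largest smallest difference between single genotypes, with symbols for the genotypes. For the lower genes both libraries of Drosha KO and both of Ago1_2 KO lie left of all others, down to 0 counts for T, and for the higher genes they lie right of all others, with Drosha KO 2 at 1.59 CPM for Crmp1.

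Genes whose log2 CPM over the 8 libraries ran most like that of T were Bdh1 (Pearson 0.99), Nae1 (0.99) and Bid (0.99). For Lin28a they were Gtpbp4, Tent2 and Pdzrn3 (0.99 each), and for Zscan4c they were Zscan4f (0.995), Zscan4d (0.99) and Usp17lc (0.99). These libraries fall into the groups that chose the genes, so the values describe a shared pattern over the same samples. Bdh1, a ketone body enzyme of mitochondria, was at 38.5 and 26.4 CPM in Drosha KO and 29.2 and 29.7 for Ago1_2 KO, against 62.6 to 94.0 in the other libraries, a far smaller difference than that of T.

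Two-cell-like genes, active in embryos at the first cleavage and in rare stem cells, stood highest of the lists. Of 23 that passed the filter, 21 lay above in all 4 libraries of the mutant pair and 0 below (12% and 11.6% of all genes). Their median log2 difference was 3.95 (3.90 with genotypes of fewer than 3 counts set to 3), against -0.015 for all genes. The filter also passes genes high in the mutant libraries alone, such as Duxf3, with 144 counts over Ago1_2 KO and 1 over WT. For such members a place above was in part fixed by the filter. The level also stepped within each pair: for 20 of 23 the means rose from WT to Dgcr8 KO to Drosha KO to Ago1_2 KO, an order held by 7.47% of all genes. The step from Dgcr8 KO to Drosha KO is part of the split that chose the members, so all genes are not a matched background. Among the 1068 genes higher in the mutant pair, Ago1_2 KO lay above Drosha KO in 750 and Dgcr8 KO above WT in 501. Zscan4c, a telomere and genome stability factor, was at 1.35 and 0.629 CPM in WT, 3.38 and 4.51 for Dgcr8 KO, 34.1 and 20.9 for Drosha KO and 94.1 and 214 for Ago1_2 KO. Zscan4f was at 1.81 and 1.5 for WT, 7.81 and 8.70 for Dgcr8 KO, 44.1 and 34.9 for Drosha KO and 149 and 354 for Ago1_2 KO. Duxf3, of the Dux family that switches on this programme, was at 0 and 0.0484 for WT, 0.158 and 0.127 for Dgcr8 KO, 0.794 and 0.62 for Drosha KO and 2.67 and 5.76 for Ago1_2 KO. No genotype overlapped another in these genes.

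The steps within the pairs were tested. Between Ago1_2 KO and Drosha KO, 7 of the 23 two-cell-like genes were called higher in Ago1_2 KO and 0 lower (edgeR, against 67 genes or 0.409% higher and 53 or 0.323% lower among all genes tested). Between Dgcr8 KO and WT, 5 were called higher and 0 lower (against 401 genes or 2.45% higher and 735 or 4.48% lower among all). Zscan4f differed by 2.67 ± 0.36 between the mutants and by 2.32 ± 0.42 between Dgcr8 KO and WT (edgeR adjusted p 0.0153 and 0.0168), and Zscan4b by 3.12 ± 0.44 and 3.40 ± 0.74 (0.0194 and 0.029). Zscan4c was called between the mutants (2.48 ± 0.42, edgeR adjusted p 0.0345; 1.77 and 0.267 without Ago1_2 KO 2) and missed between Dgcr8 KO and WT (2.00 ± 0.53, 0.0528). In place of the 7, 0 were called without Ago1_2 KO 2 or without Drosha KO 2, 4 were called without Drosha KO 1, Dgcr8 KO 1 or Dgcr8 KO 2, and in place of the 5, 0 were called without Dgcr8 KO 1, Dgcr8 KO 2 or WT 2, and 8 without WT 1. With limma-voom 0 of the list were called between Dgcr8 KO and WT, with the GC content offset 3 and with a 1.5-fold limit 2. Without Ago1_2 KO 2 Zscan4f differed by 1.92 (edgeR adjusted p 0.0765) and Zscan4b by 2.34 (0.179), and without WT 2 Zscan4b differed by 2.65 between Dgcr8 KO and WT (0.158). Most members are near-identical copies between which reads may be split.

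**Figure D3:**
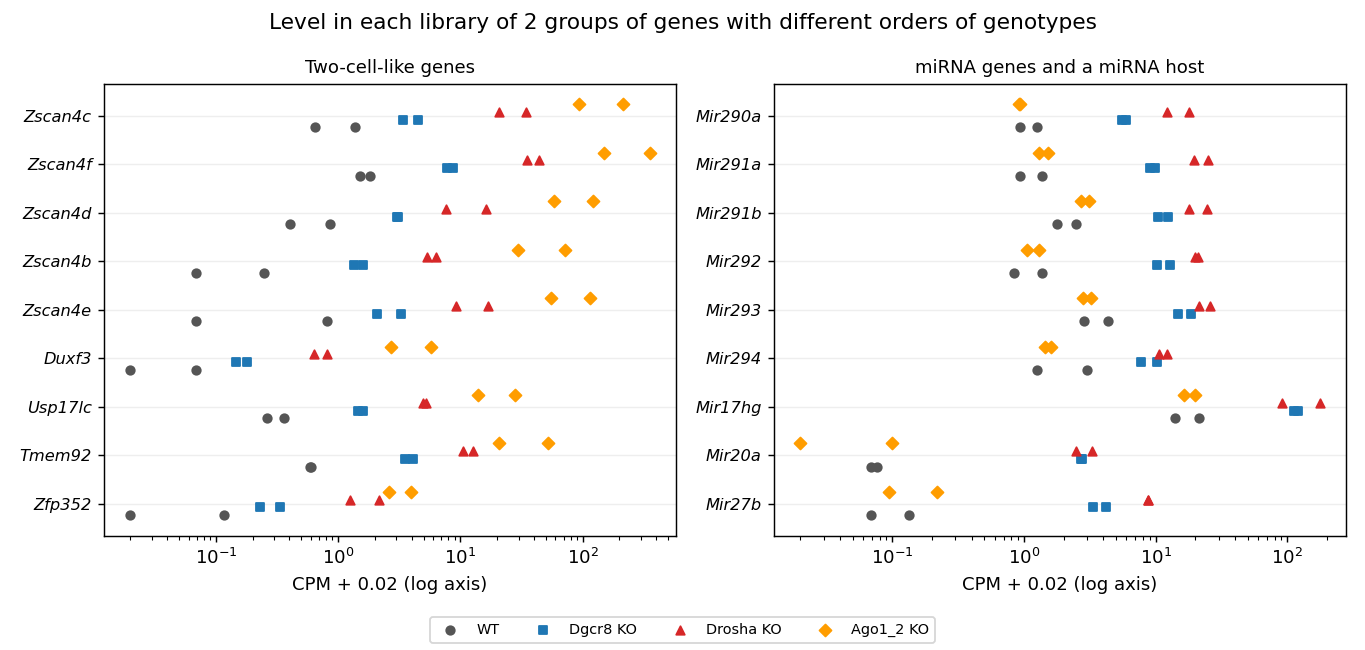
Level in each library (CPM plus 0.02, log axis) of 9 two-cell-like genes (left) and of 8 miRNA genes and the host transcript Mir17hg (right). On the left the genotypes step from WT up to Ago1_2 KO, while on the right Drosha KO and Dgcr8 KO lie high and Ago1_2 KO lies beside WT, near 1 CPM for Mir290a.

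Primary miRNA genes kept to another order. Of 6 listed genes of the miR-290 cluster that passed the filter, 0 parted the pairs, near the shares of all genes (12% above and 11.6% below). They belong to 1 cluster, so they are not independent. Between the mutants 5 of the 6 were called lower in Ago1_2 KO (edgeR, against 0.323% of all genes). Between Dgcr8 KO and WT 5 were called higher in Dgcr8 KO (against 2.45% of all genes). The list does not hold every gene of the cluster: Mir290a, Mir291a, Mir291b, Mir292, Mir293 and Mir294 were each called in both comparisons. In 6 of the 6 listed genes the mean was highest in Drosha KO, next in Dgcr8 KO and lowest in WT or Ago1_2 KO. That order was held by 3.33% of all genes. Mir291a (chromosome 7) was at 24.9 and 19.6 CPM in Drosha KO and 9.02 and 9.91 for Dgcr8 KO, but at 1.27 and 1.497 for Ago1_2 KO and 1.35 and 0.919 for WT. Its log2 difference was -4.01 ± 0.34 between the mutants and 3.06 ± 0.34 between Dgcr8 KO and WT (edgeR adjusted p 0.00279 and 0.003). Mir290a and Mir294 differed by -4.04 ± 0.38 and -2.92 ± 0.44 between the mutants (edgeR adjusted p 0.00302 and 0.0232) and by 2.404 ± 0.37 and 2.06 ± 0.42 between Dgcr8 KO and WT (0.0096 and 0.0254). The count of 5 in the first comparison was 1 without either Ago1_2 KO library, and in the second it was 1 without Dgcr8 KO 1 and 2 without Dgcr8 KO 2. Mir17hg, host of the miR-17 cluster on chromosome 14, was at 176 and 90.9 CPM in Drosha KO, 121 and 112 for Dgcr8 KO, 19.7 and 16.5 for Ago1_2 KO and 14.1 and 21.3 for WT.

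Across all genes the comparison of Ago1_2 KO with Drosha KO, which asks how far the members of the mutant pair differ, called 120 genes, 67 higher and 53 lower in Ago1_2 KO (1602 at an unadjusted p under 0.05). Dgcr8 KO against WT called 1136, 401 higher and 735 lower (4916 unadjusted). Of the 1068 genes higher in the mutant pair, 23 were called higher and 2 lower in Ago1_2 KO than in Drosha KO (2.34% called). Of the 589 lower genes 0 and 1 were (0.17%), beside 0.409% higher and 0.323% lower of all genes. For Dgcr8 KO against WT the higher set held 40 calls higher and 76 lower (10.9% called), and the lower set 14 and 6 (3.4%). Of all genes, 2.45% were called higher and 4.48% lower in that comparison. The 120 depended on which libraries were kept. Fewer genes were called without either Ago1_2 KO library or without Drosha KO 2. The same held without either Dgcr8 KO library, although Dgcr8 KO is in neither group compared. A lone library is taken to vary like the other groups, so a lost call does not show that a difference came from 1 library. The 1136 became 40 and 60 without Dgcr8 KO 1 and Dgcr8 KO 2, 4245 and 524 without WT 1 and WT 2, 2032 and 2007 without Drosha KO 1 and Drosha KO 2, and 465 and 462 without Ago1_2 KO 1 and Ago1_2 KO 2.

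Genes outside the two-cell-like families also rose from Drosha KO to Ago1_2 KO. Igfbp7, a secreted binder of insulin-like growth factors, had 7.60 and 9.13 CPM in Ago1_2 KO, 0.624 and 0.659 for Drosha KO and 0.317 to 0.903 elsewhere (3.69 ± 0.43 on the log2 scale, edgeR adjusted p 0.00733). Crabp2, a carrier of retinoic acid, had 8.63 and 9.28 CPM in Ago1_2 KO, 1.14 and 0.891 for Drosha KO and 0.508 to 0.822 elsewhere (3.15 ± 0.41, edgeR adjusted p 0.0133). Pax6, a transcription factor of eye and neural development, had 11.3 and 9.43 CPM in Ago1_2 KO, 1.76 and 0.853 for Drosha KO and 0.194 to 0.381 for WT and Dgcr8 KO (3.01 ± 0.43, edgeR adjusted p 0.0202). All 3 were highest in both Ago1_2 KO libraries. Pax6 is 1 of the 8 summed neural markers, and their sum was also highest in Ago1_2 KO. Unlike Pax6, the sum was lower in Dgcr8 KO than in WT. Sox1, another of the 8, was lower in Ago1_2 KO than in WT, and Nes was near WT (28.2 and 24.5 against 20.4 and 23.5 CPM). Tubb3, at 33.4 and 46.7 CPM in Ago1_2 KO against 4.85 and 4.31 for WT, made up more of the sum in Ago1_2 KO than Pax6. Tarm1 and Fgf17 went the other way round the pairs: both were low in Drosha KO (0.114 and 0.775, 0.511 and 0.31 CPM) and near WT in Ago1_2 KO (4.86 and 7.11, 2.03 and 5.09). Tarm1 changed by 3.62 ± 0.58 (edgeR adjusted p 0.028; 5.63 without Drosha KO 2, and no call without either library of Ago1_2 KO or of Dgcr8 KO, at up to 0.195). Fgf17 changed by 3.11 ± 0.55 (edgeR adjusted p 0.0392), a call lost whichever of the 8 libraries was left out (0.0513 to 0.289). Igfbp7 lost its call without Ago1_2 KO 1 or Ago1_2 KO 2 (edgeR adjusted p 0.0504 and 0.0938), and Crabp2 without either of these or Drosha KO 2 (0.0732, 0.138 and 0.0511). Pax6 lost its call without any library of Ago1_2 KO or Dgcr8 KO or without Drosha KO 2 (edgeR adjusted p up to 0.147). Of 23 genes followed in this comparison, some lost their call whichever library was left out, most of all without Ago1_2 KO 2. Of the 23, 0 changed sign, but most were picked for libraries that do not overlap between the mutants, which nearly fixes the sign.

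The 2 comparisons within the pairs share no library, but their spread was estimated in 1 fit of all 8 libraries, so their p-values are not independent. In both, 56 genes were called, which is 46.7% of the 120 and 4.93% of the 1136. Of all genes, Dgcr8 KO against WT called 2.45% higher and 4.48% lower, and Ago1_2 KO against Drosha KO 0.409% and 0.323%. Of these, 33 were lower in Ago1_2 KO than in Drosha KO and higher in Dgcr8 KO than in WT, and 22 of the 33 were annotated miRNA genes. The clusters on chromosome 7 (Mir290a, Mir291a, Mir291b, Mir292, Mir293, Mir294), chromosome 14 (Mir18, Mir19b-1, Mir20a, Mir92-1), chromosome X (Mir106a, Mir18b, Mir19b-2, Mir20b, Mir363) and chromosome 13 (Mir23b, Mir27b, Mir24-1) made up 18 of them, so members are not independent. Mir27b had 8.68 and 8.68 CPM in Drosha KO, 3.33 and 4.19 for Dgcr8 KO, 0.199 and 0.0748 for Ago1_2 KO and 0.113 and 0.0484 for WT. Mir29a had no counts in either Ago1_2 KO or WT, against 216 for Drosha KO and 18 for Dgcr8 KO, so it was at least 63.8-fold lower in Ago1_2 KO than in Drosha KO and at least 6.64-fold higher in Dgcr8 KO than in WT. The same group held Dgcr8 itself, the imprinted genes Mest and Nespas (Nespas runs antisense to another gene and is uncertain where the counting strand is not given) and the host transcripts Mir17hg and Mir22hg.

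Another 15 genes were higher in Ago1_2 KO than in Drosha KO and higher in Dgcr8 KO than in WT, and 11 of these also parted the pairs. They include Zscan4b, Zscan4d, Zscan4f and Usp17lc, with the predicted genes Gm2016, Gm8300 and Gm8332 of chromosome 12. Gm2016 was at 0.621 and 0.774 CPM in WT, 5.96 and 6.10 for Dgcr8 KO, 19.4 and 11.6 for Drosha KO and 49.5 and 100 for Ago1_2 KO, the same stepped order. Smarca2, an ATPase of chromatin remodelling complexes, overlapped between the pairs: 17.3 and 21.6 CPM in Ago1_2 KO and 13.2 and 13.7 for Dgcr8 KO, against 6.47 and 6.16 for Drosha KO and 3.56 and 3.39 for WT (1.62 ± 0.26 and 1.96 ± 0.27, edgeR adjusted p 0.0275 and 0.00619). Of the remaining 8, Ddit4, Entpd3, Klk1 and Serping1 were higher in Ago1_2 KO than in Drosha KO and lower in Dgcr8 KO than in WT. Gldc, H2-Q4, Stmn3 and Zfy1 were lower in both.
Leaving out Ago1_2 KO 2, Ago1_2 KO 1, Dgcr8 KO 1 or Dgcr8 KO 2 left 4, 13, 11 and 13 of the 56, leaving out Drosha KO 1 or Drosha KO 2 left 34 and 28, and leaving out WT 1 or WT 2 left 50 and 33. The 22 miRNA genes became 3, 4, 6 and 9 in the first 4 cases.

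**Figure D4:**
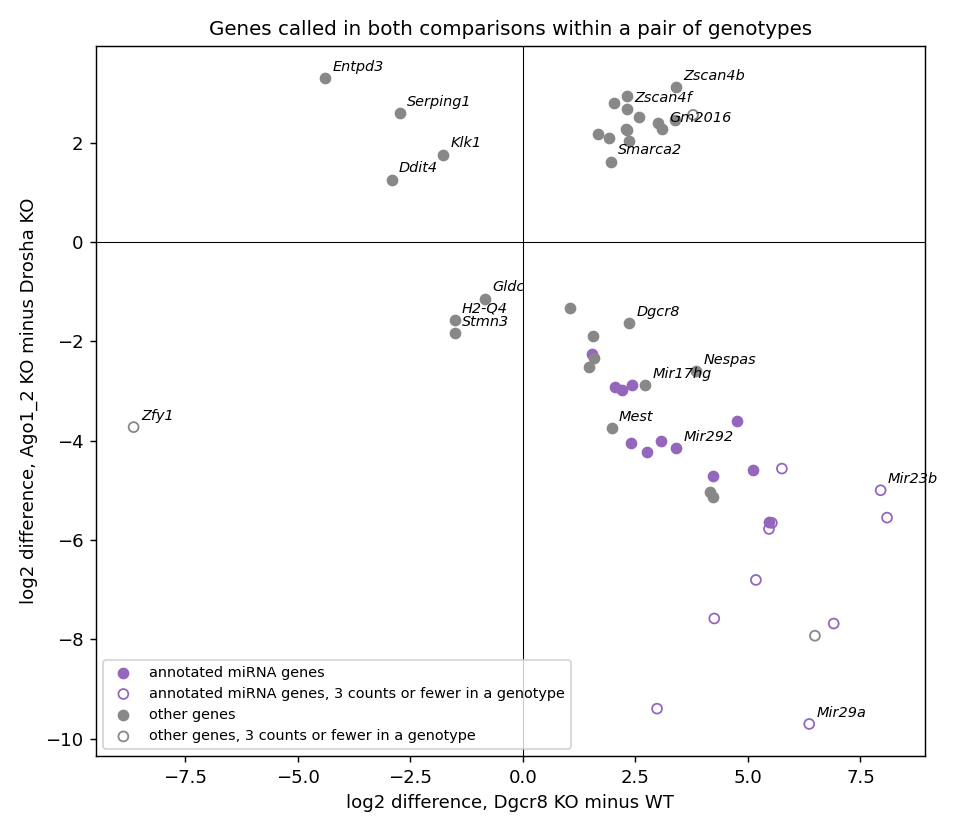
Each point is 1 of the 56 genes called in both comparisons, with the log2 difference of Dgcr8 KO minus WT on the x axis and of Ago1_2 KO minus Drosha KO on the y axis, and open symbols mark genes with 3 counts or fewer in a genotype, whose fitted values have no firm size. All 22 miRNA genes lie in the lower right, and the 15 genes in the upper right include Zscan4b and Zscan4f.

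Wnt targets had the lowest median of the lists between the pairs, -1.03 over 22 genes, although every genotype received the same GSK3 inhibitor. Of the 22, 6 lay below in all 4 mutant libraries and 3 above, against 11.6% and 12% of all genes, so that the count above is near the share over all genes. Axin2, a feedback inhibitor of the pathway, was at 21.2 and 23.4 CPM in Drosha KO and 14.2 and 21.4 for Ago1_2 KO, against 61.0 and 64.9 for WT and 116 and 126 for Dgcr8 KO. Cdx1, a homeobox gene, was at 4.77 and 10.7 for Drosha KO and 3.66 and 4.86 for Ago1_2 KO, against 19.13 and 48.2 for WT and 31.9 and 37.1 for Dgcr8 KO. T, Sp5, Bmp4 and Tcf7 were the other lower members. The 3 that stood above were Notum, a secreted Wnt inhibitor (166 and 69.1, 113 and 160 CPM in Drosha KO and Ago1_2 KO, against 28.1 to 65.5), Apcdd1 and Fzd7. Within the pairs Axin2 and Lef1 were called higher in Dgcr8 KO than in WT (0.94 and 2.395, edgeR adjusted p 0.036 and 0.0345), and the cyclin gene Ccnd1 alone of the list was called between the mutants, higher in Ago1_2 KO (1.15, 0.0465). The list median was -0.69 with no filter on low counts, and the number below was 10 without WT 1.

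Of 21 genes of Nodal and TGF-beta signalling, 6 lay above and 0 below (12% and 11.6% of all genes), with a median of 0.54, and 15 overlapped between the pairs. Lefty1, a secreted Nodal inhibitor, was at 129 and 15.3 CPM in Drosha KO and 162 and 188 for Ago1_2 KO, against 3.73 and 4.98 for WT and 9.18 and 6.04 for Dgcr8 KO (a log2 difference of 4.28, or 3.17 without Drosha KO 1). The ligand Nodal was at 49.9 and 45.4 for Drosha KO and 83.0 and 99.0 for Ago1_2 KO, against 21.4 to 36.1 elsewhere. The receptors Tgfbr2 and Acvr1b and the signal carrier Smad3 also lay above. Of 24 reported targets of the miR-290 family, 10 lay above and 1, Txnip, below (12% and 11.6% of all genes), with a median of 0.49. Lefty1 and Tgfbr2 are in both lists, and Epas1, a hypoxia factor, was at 124 and 80.9 for Drosha KO and 106 and 112 for Ago1_2 KO against 16.3 to 29.2. Between Ago1_2 KO and Drosha KO 0 genes of either list were called.

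Of 32 genes of interferon and RNA sensing, 12 lay above and 0 below (12% and 11.6% of all genes) and 20 overlapped, with a median of 0.98 (0.93 with genotypes of fewer than 3 counts set to 3), and 19 lay above without Drosha KO 2. Oas2, which makes the messenger that activates RNase L, was at 18.3 and 5.16 CPM in Drosha KO and 16.1 and 18.4 for Ago1_2 KO, against 1.19 to 2.56 elsewhere. Zbp1, a sensor of Z-form nucleic acid, was at 25.2 and 6.43 for Drosha KO and 27.9 and 31.1 for Ago1_2 KO, against 0.953 to 3.78. Mavs, the adaptor of cytosolic RNA sensors, was at 119 and 125 for Drosha KO and 122 and 146 for Ago1_2 KO, against 49.7 to 65.4. Mx1, which responds to interferon itself, differed by -0.06 between the pairs and overlapped. Within the pairs 0 members were called between the mutants. Ifitm1 and Bst2 alone of the 32 were called lower in Dgcr8 KO than in WT (edgeR adjusted p 0.02 and 0.0159), beside 4.48% of all genes called lower.

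Of 30 matrix and adhesion genes, 12 lay above and 0 below (12% and 11.6% of all genes) and 18 overlapped, with a median of 0.66. Itga5, an integrin of the fibronectin receptor, was at 202 and 175 CPM in Drosha KO and 167 and 201 for Ago1_2 KO, against 51.5 to 57.6 elsewhere. The basement membrane genes Nid1 (741 to 884 against 320 to 513 CPM), Lama5 and Hspg2 followed. Of 12 neural genes that passed the filter, 6 lay above and 0 below (median 1.27, or 0.65 with no filter on low counts), among them Tubb3 and Sox21, and Pax6 and Stmn2 were called between the mutants.

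Pluripotency factors came in 2 lists. Of 18 naive factors 5 lay above and 1, Gbx2, below (12% and 11.6% of all genes), with a median of 0.13, and the largest of the 5 were Nr0b1 (0.90) and Fgf4 (0.86). Sox2 was at 289 to 323 CPM in the mutant pair and 239 to 284 elsewhere. Of 21 core and formative factors 6 lay above and 2, Lin28a and Etv4, below, beside the same shares, and the de novo methyltransferase Dnmt3a was at 59.4 and 37.3 for Drosha KO and 38.9 and 45.7 for Ago1_2 KO, against 18.1 to 22.9. Of 25 genes of the miRNA machinery 4 lay above and 1 below, beside the same shares, with a median of 0.02. In this list Mov10, an RNA helicase, was at 453 and 443 for Drosha KO and 397 and 449 for Ago1_2 KO. The other libraries had 160 and 184 for WT and 104 and 108 for Dgcr8 KO. Tnrc6b, an Argonaute partner, also lay above.

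Stress and metabolic lists were also counted. Of 27 ATF4 and amino acid stress genes, 0 lay above and 1, the serine synthesis enzyme Psat1, below, with a median of -0.70, whereas 21 were called lower in Dgcr8 KO than in WT (edgeR, against 4.48% of all genes; 3 without either Dgcr8 KO library, 14 without WT 2 and 12 with a 1.5-fold limit). Trib3 was at 70.9 and 94.0 CPM in WT but 10.4 and 8.89 for Dgcr8 KO, 10.1 and 16.4 for Drosha KO and 18.7 and 22 for Ago1_2 KO, so that WT alone stood high. Of 25 glycolysis genes 9 were called lower in Dgcr8 KO than WT (0 and 1 without Dgcr8 KO 1 and Dgcr8 KO 2, 4 without WT 2, 15 without WT 1, 3 without either Ago1_2 KO library). The 9 became 2 with the GC content offset and 2 with a 1.5-fold limit, and 15 with DESeq2, beside 4.48% of all genes called lower. Of the same 25, Pfkm and Pfkfb3 lay above in the mutant pair, a share under the 12% of all genes. Of 34 cytosolic ribosomal protein genes 8 lay below (11.6% of all genes did) and 0 above, at a median of -0.48, and 0 of 30 respiratory chain genes parted the pairs.

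**Figure D5:**
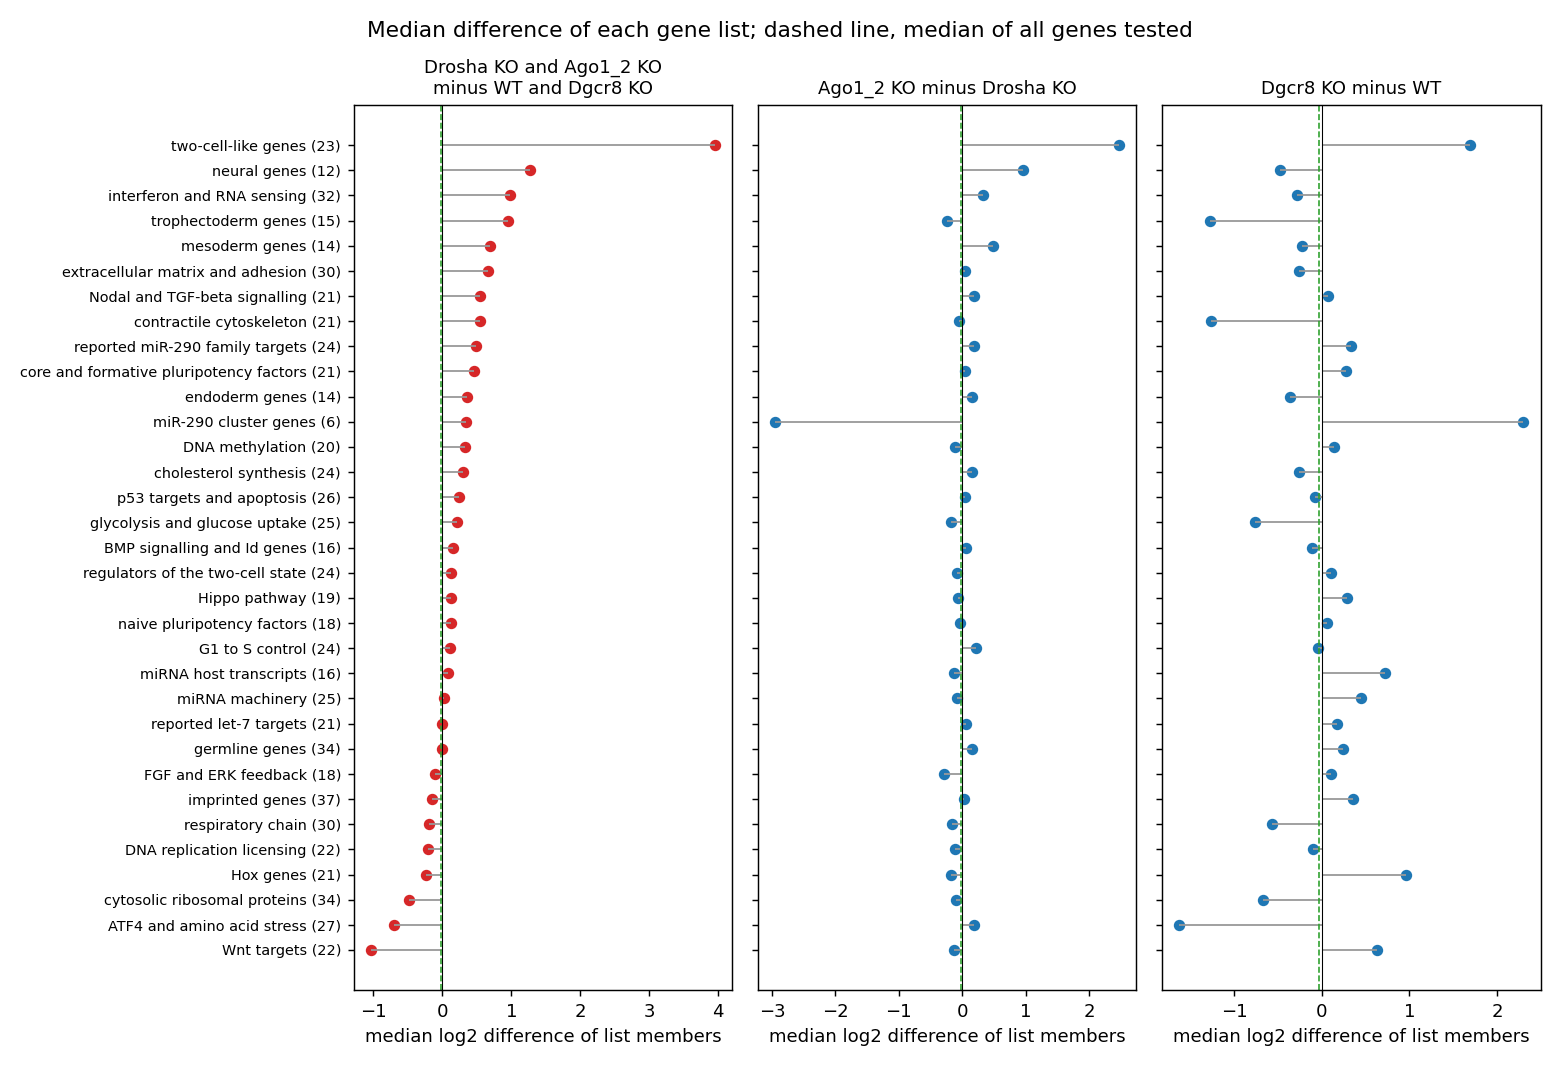
Median log2 difference of the members of 33 gene lists (number of members in brackets) between the pairs (left, not tested) and within them (middle and right), with the dashed line at the median of all genes. Two-cell-like genes lead the left panel at 3.95 and Wnt targets end it at -1.03, while the miR-290 cluster genes reach -2.95 in the middle panel and 2.30 in the right.

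Of 34 germline genes 6 lay below and 0 above (median -0.01), against 11.6% and 12% of all genes. The 6 were Xlr3a, Xlr3b, Xlr4a, Xlr5a, Taf7l and Brdt. The Xlr genes are near-identical copies of 1 family, so their counts are uncertain and not independent. Xlr3a was at 0.908 and 3.18 CPM in Drosha KO and 3.26 and 1.80 for Ago1_2 KO, against 13.9 and 15.1 for WT and 18.7 and 20.5 for Dgcr8 KO. Of 21 Hox genes 4 lay below, Hoxc5, Hoxc8, Hoxc9 and Hoxc10, each under 4 CPM in every library, and 2 above, Hoxb4 and Hoxd8, against 11.6% and 12% of all genes.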

How the data were processed

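PolyA RNA of 8 libraries, 2 for each of 4 genotypes, was sequenced from a TruSeq stranded kit. The authors deposited raw counts per gene for all libraries in 1 table, and reads were aligned with STAR 2.4.2a to mm10 (GRCm38), per the submitters' processing notes. No label names the tool that counted reads, its strand setting or its annotation release, so overlapping and antisense genes are uncertain. Gene symbols and positions came from GENCODE M21, which matched 47224 of 47643 genes, and sequences from RefSeq (GRCm38.p6).

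Genes passing filterByExpr by genotype (16388) were scaled by TMM and fitted with edgeR 4.0.16 (R 4.3.3), by its robust quasi-likelihood test over all 8 libraries with 4 residual degrees of freedom and a Benjamini-Hochberg threshold of 0.05. The tests were Ago1_2 KO against Drosha KO and Dgcr8 KO against WT, which share no library but take their spread from the same fit. The difference of the pairs came from the component that chose the members and has no test. Differences between the pairs and in the 2 tests are fitted log2 values, to which the prior count of 2 was not applied. That prior count entered only log2 CPM, as used for the components and for differences between single genotypes. The code was tested on simulated data. limma 3.58.1 and DESeq2 1.42.0 were alternatives.

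Members and lists were chosen with earlier results of these data known. Named genes were those with the largest value of the smallest of the 4 differences between single genotypes, members of the lists and the targeted genes. Also named were those with the largest called changes within a pair, among genes whose libraries do not overlap between its genotypes. Others, such as Smarca2, Gm2016 and Vrtn, were chosen after their values were seen. Replicates with the same number correlated in their deviations at 0.0963 to 0.245, and the labels do not pair them, so the main fit has no block. Floors of 3 counts and count ratios cover counting error only.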

Additional observations from a re-analysis of the deposited data

How the results depend on the processing

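The gap between the pairs on the first component was 59.6% of the range, 30.8% with genes scaled to unit variance, 49.7% with a GC content offset (chosen after seeing the data) and 38.4% to 75.4% with a library left out. The 1068 higher and 589 lower genes became 1968 and 1903 with no fold limit, 593 and 275 with all 4 differences at 2-fold, and 1112 to 1514 and 643 to 861 with a library left out. The 120 genes called between Ago1_2 KO and Drosha KO became 648 with no filter on low counts, 15 with only those groups fitted, 48 with a 1.5-fold limit, 362 with DESeq2 and 6 to 176 with a library left out. The 1136 genes called between Dgcr8 KO and WT became 3241, 723, 273 and 2355 in the same order, 741 with the GC content offset and 40 to 4245 with a library left out. With a replicate block, 158 and 2795 genes were called, but the numbers are not known to pair libraries. The cause of these shifts was not tested. The median of the germline genes, near 0, changed sign to 0.0146 with DESeq2 size factors, 0.0173 with library size only, 0.00562 with a filter of 1 CPM in 2 libraries, 0.0346 with the GC content offset and ran from -0.2093 (without Ago1_2 KO 1) to 0.1054 (without WT 2) with a library left out. Of 23 and 26 named genes called within the pairs, 0 changed sign under any alternative run. Most were picked for libraries that do not overlap between the genotypes compared, so a kept sign was nearly fixed by that choice.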

Other observations

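Medians over the genes of single chromosomes differed. The 613 tested genes of chromosome 15 had a median log2 difference of 0.31 between the mutant pair and the other genotypes, and of -0.42 for Dgcr8 KO minus WT. For single genotypes the medians were 0.13 and 0.17 for Drosha KO and Ago1_2 KO against WT, and 0.54 and 0.49 against Dgcr8 KO. The 630 tested genes of chromosome X had medians of -0.16 between the pairs and 0.23 for Dgcr8 KO minus WT. The 789 of chromosome 17 had 0.07 and -0.36, and chromosome 1, with -0.13 between the pairs, was close to X.

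Y-linked genes were at or near 0 in Dgcr8 KO, where Uba1y had 1 count. Ddx3y, an RNA helicase, was at 28.4 and 34.0 CPM for WT, 116 and 83.2 for Drosha KO and 96.2 and 97.9 for Ago1_2 KO, with no counts in either Dgcr8 KO library, at least 363-fold lower than in WT. Eif2s3y was at least 893-fold lower and Uty at least 200-fold lower.

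Across 16315 genes the GC content of the transcripts ran with the differences, as a description over genes of the same libraries, with a Spearman rho of 0.22 for the difference between the pairs, -0.09 for Ago1_2 KO minus Drosha KO and -0.46 for Dgcr8 KO minus WT.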
